A study of Bos taurus with 16 samples.

Results

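Interleukin receptors were examined in CD14+ cells taken from the endometrium and from the blood of 4 pregnant cows. The set comprised 10 genes, IL18R1, IL1R2, CRLF2, IL4R, IL7R, IL2RB, IL2RG, IL6R, IL27RA and IL10RA, and every probe on the array named for them was taken, 11 of 21475 probes. IL4R had 2 probes and each other gene had 1. Symbols in the probe annotation identified 8 of the genes. IL10RA was found through its gene identifier in a RefSeq gene table (assembly ARS-UCD2.0), and CRLF2 through its full name, which the array's design gives as similar to cytokine receptor-like factor 2. The study compared macrophages of the pregnant uterus with blood monocytes, and the comparison here asks which of these receptors differed between the cells of the 2 sites. Animals 1, 2, 3 and 4 were at days 164, 239, 242 and 248 of pregnancy and received no treatment that the labels name. From each animal, cells sorted for CD14 from the enzymatically dispersed endometrium and from blood mononuclear cells gave RNA that was amplified, labeled and hybridized on 2 arrays with 2 colours, with the endometrial RNA in 1 dye and the blood RNA in the other. The dyes were swapped between the 2 arrays of animals 1, 2 and 4, but on both arrays of animal 3 blood was in Cy3 and endometrium in Cy5, so that dye and tissue cannot be told apart in that animal. By flow cytometry, per the labels, the endometrial cells were 90 to 95% pure and the blood cells 98 to 99%. Levels are given as the authors' normalized log2 intensity, averaged over the 2 spots of a probe and the 2 technical replicates. A log2 ratio is the endometrial level minus the blood level of the same animal, so that a negative value means lower in endometrium. Levels of different probes cannot be compared with each other.

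Interleukin receptors are assembled from chains that bind the ligand and chains that pass on the signal, and many chains are shared. IL2RG is the common gamma chain, which pairs with IL2RB, IL4R or IL7R, among others, and IL7R also joins CRLF2 to form the receptor for thymic stromal lymphopoietin (TSLP). IL6R and IL27RA act with the shared signal chain IL6ST (gp130), IL10RA acts with IL10RB, and most of these receptors signal through JAK kinases and STAT proteins. IL18R1 belongs to the IL1 receptor family and signals with IL18RAP through MYD88, whereas IL1R2 is a decoy that binds IL1 without signaling. In macrophages, IL4 acting on IL4R is the classic signal for alternative activation, and IL10 acting on IL10RA restrains inflammatory genes. IL7R and IL2RB are best known from lymphocytes.

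Each value rests on a single 60-base oligonucleotide that hybridizes to the gene's transcript. The probes of the receptors had GC contents of 35.0 to 55.0%. Shown are the 4 probes on which results below turn and which read without a stop codon in at least 2 frames of the printed strand. They are in lower case throughout, from 5′ to 3′, since the whole oligonucleotide is the probe and no part of it is set apart.
IL18R1: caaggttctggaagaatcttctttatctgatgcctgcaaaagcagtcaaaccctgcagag
CRLF2: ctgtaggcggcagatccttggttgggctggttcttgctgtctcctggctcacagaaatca
IL4R probe 2: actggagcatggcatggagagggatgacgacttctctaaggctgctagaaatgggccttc
IL7R: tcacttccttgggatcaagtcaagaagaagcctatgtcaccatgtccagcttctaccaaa
The place of the probes within the bovine genome is not given in the sources used here.

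Before the receptors, the cells themselves were checked against marker genes, because the 4 animals did not resemble each other. CD14, the antigen used for the sort, had levels in blood of 16.12, 5.76, 8.85 and 6.94 in animals 1 to 4. In endometrium CD14 measured 14.04, 6.07, 9.5 and 7.38. Both preparations of animal 1 thus stood well above those of the other animals, although all 8 channels of each tissue detected CD14 well above background. CD3E, a chain of the T cell receptor complex, showed the opposite order, with 8.03 in the blood cells of animal 1 against 13.01 to 14.24 in those of animals 2, 3 and 4. Summed over 6 monocyte and macrophage markers, the log2 level in blood was 18.14 in animal 1 and 12.30 to 13.61 in the others. Summed over 13 T and NK cell markers, it was 13.18 in animal 1 and 16.77 to 17.72 in the others. In endometrium the summed level of the monocyte and macrophage markers was 17.56 in animal 1 and 12.44 to 15.16 in the others, and that of the T and NK cell markers 15.93 and 17.39 to 18.65. Against animal 1, the preparations of animals 2, 3 and 4 thus held less transcript of CD14 and, in sum, more of the T and NK cell markers. The summed B cell markers had no such order in endometrium, at 14.19 in animal 1 and 13.93, 13.43 and 15.92 in animals 2 to 4. All preparations are labeled CD14+, and transcript levels do not measure the share of CD14+ cells. Every tested receptor is given below for each animal and also without animal 1.

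**Figure D1:**
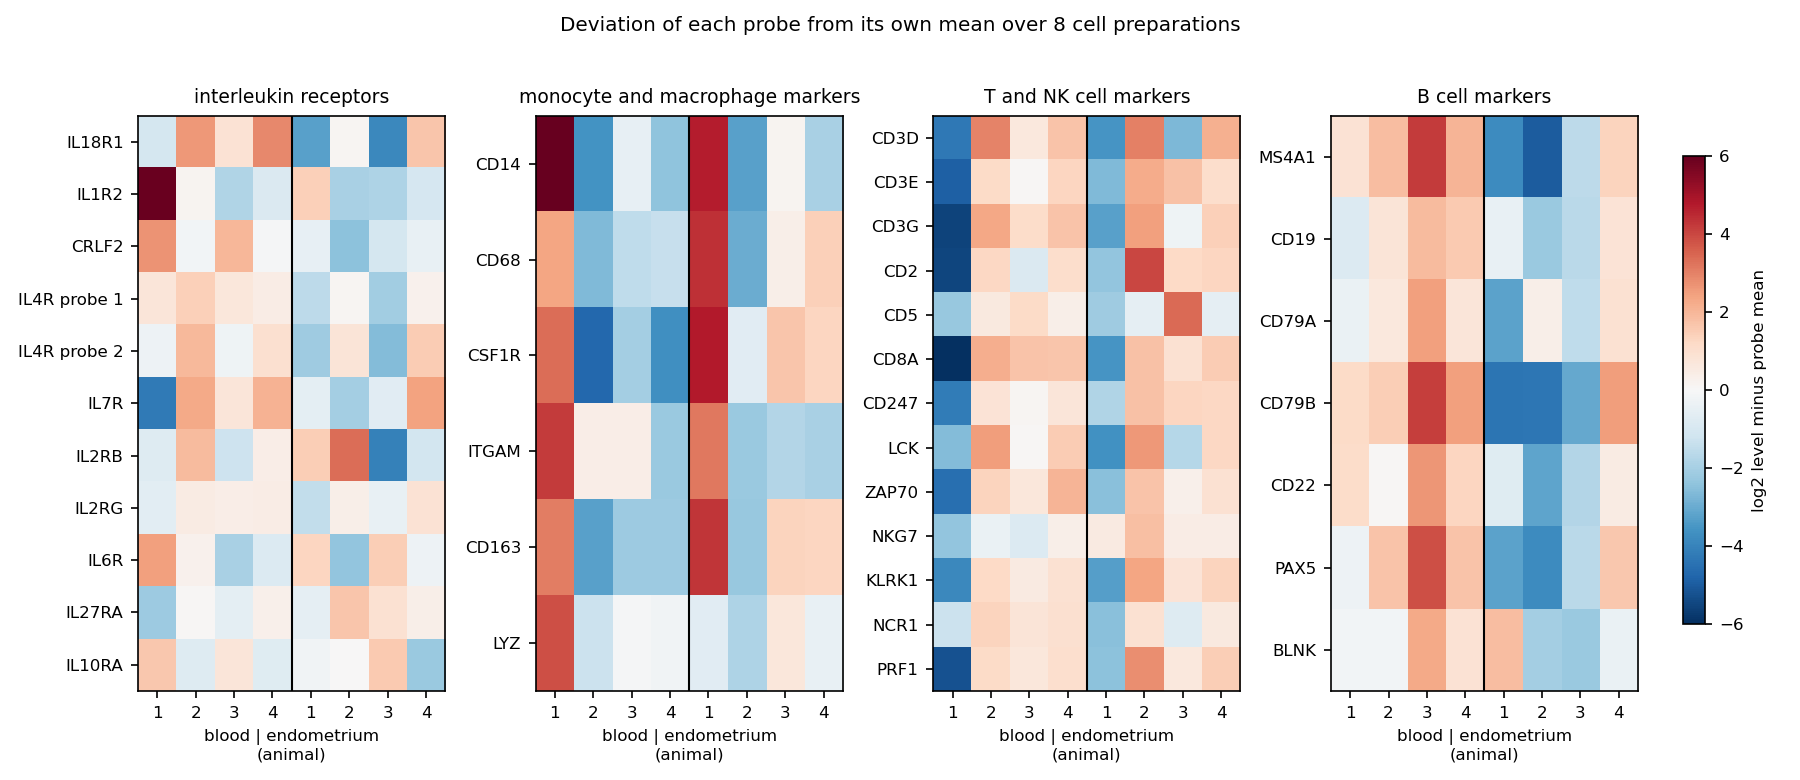
Heat maps of the log2 level of each probe minus its own mean over the 8 cell preparations (columns: blood cells of animals 1 to 4, then endometrial cells of animals 1 to 4) for the 11 receptor probes and for markers of monocytes and macrophages, T and NK cells, and B cells. The blood cells of animal 1 are highest for CD14 (16.12) and lowest for CD3E (8.03). Among the receptors the same column is highest for IL1R2 (10.34), CRLF2 (11.35), IL6R (12.68) and IL10RA (8.33). It is lowest for IL7R (7.30) and IL27RA (12.05).

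Markers also differed between the tissues. All 8 epithelial markers, all 6 stromal markers and all 6 trophoblast markers measured were higher in endometrium on average, with median log2 ratios of 3.69, 3.65 and 5.22. Called differentially expressed were 5 of 8, 2 of 6 and 6 of 6 of them, namely KRT8, KRT18, EPCAM, CDH1 and CLDN3 of epithelium, COL3A1 and DCN of stroma, and every trophoblast marker. All 7 B cell markers were lower in endometrium on average, with a median log2 ratio of -2.57, although limma called 0 of them after adjustment and 4 before it. Their summed level was 14.62 to 17.42 in blood and 13.43 to 15.92 in endometrium. The median log2 ratio of the B cell markers was -2.77, -3.21, -4.53 and -0.69 in animals 1 to 4, smallest in animal 4. The 13 T and NK cell markers had medians of 2.26, 0.37, -0.05 and -0.10 in the same animals. Of 6 granulocyte markers tested, CXCR2 and CCR3 were called lower in endometrium, with log2 ratios of -3.86 and -4.31, each well above background in all 8 blood channels and 2 of 8 endometrial channels, so that the size of these ratios is uncertain. Each of these calls was lost in every fit that left out 1 animal, with adjusted p between 0.059 and 0.127 by limma. LTF of the same list had ratios of 1.65, 3.34, 5.59 and 0.40, higher in endometrium in each animal (unadjusted p = 0.015 by limma). MMP9 had a mean ratio of 1.26. The epithelial calls of KRT8 and EPCAM were also lost in every fit that left out 1 animal. Their adjusted p by limma was 0.062 to 0.081 and 0.057 to 0.151. Without animal 4 no probe of any list was called. With normexp, which models each signal as background plus expression, 5 of the 6 trophoblast calls were kept and the epithelial, stromal and granulocyte calls were all lost, CXCR2 at -1.08 and CCR3 at -0.85. In cells sorted as a bulk, fewer cells of a type and less RNA per cell cannot be told apart.

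None of the 10 receptor probes tested passed the adjustment. A probe was called differentially expressed when its adjusted p reached 0.05 and the tissues differed more than 2-fold. Limma called 0 of 10 receptor probes, against 1.35% of all 16653 probes tested, 1.23% of them as higher in endometrium and 0.120% as higher in blood. The eleventh probe, IL1R2, was too dim to be tested. With the p of limma left unadjusted, under the same limits, 4 of the 10 passed, where 16% of all probes tested passed. The count was 2 without animal 1 and without animal 3, 3 without animal 2 and 5 without animal 4. IL27RA passed in none of the fits without animal 1, 2 or 3, and IL4R probe 1 in neither of those without animal 1 or 3, whereas IL18R1 and CRLF2 passed in all 4. IL18R1, CRLF2 and IL4R probe 1 were the 3 that passed as lower in endometrium, against 8.05% of all probes, and IL27RA was the 1 that passed as higher, against 7.98%. IL18R1, CRLF2 and IL27RA were named by the study on these same samples, so their place in this count is no independent evidence. These 4 probes were also those with the same sign in 4 of 4 animals, which 25.0% of all probes had. Of the 4, 3 were lower in endometrium, against 15.2% of all probes, and 1 was higher, against 9.82%. Another 4 probes, IL7R, IL2RB, IL6R and IL10RA, were higher in endometrium in 2 animals and lower in the other 2. The median log2 ratio of the 10 probes was -0.42, and that of all probes tested was -0.14.

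**Figure D2:**
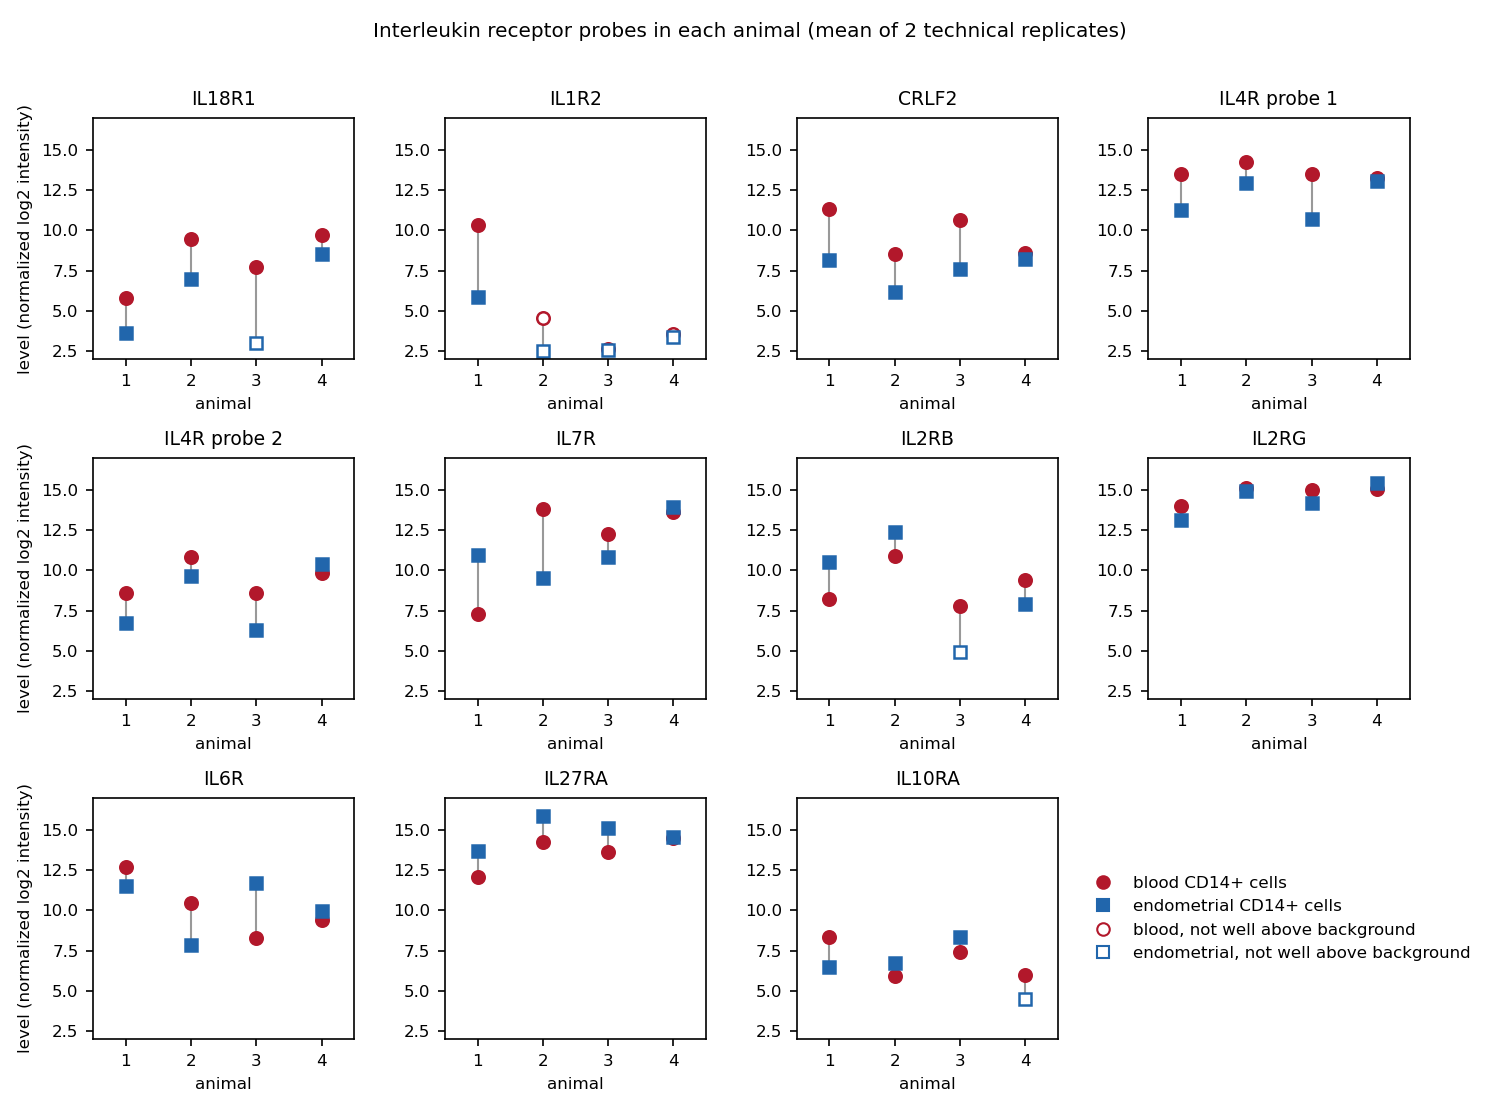
Normalized log2 level of each of the 11 receptor probes in blood (red circles) and endometrial (blue squares) CD14+ cells of animals 1 to 4, each the mean of 2 technical replicates, with open symbols where a probe was not well above background. CRLF2 and IL4R probe 1 were higher in all 4 blood than in all 4 endometrial preparations, IL27RA was higher in endometrium in every animal, and IL7R and IL6R changed direction between animals.

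IL18R1, the ligand-binding chain of the IL18 receptor, had the largest mean difference among the tested receptors. Its level in blood was 5.81, 9.47, 7.71 and 9.72 in animals 1 to 4. In endometrium it was 3.61, 6.97, 3.01 and 8.54. Each endometrial value lay below the blood value of the same animal, but the tissues overlapped, with or without animal 1. The log2 ratios were -2.20, -2.49, -4.71 and -1.18, with a mean of -2.64 (SE 0.65, 95% interval -4.18 to -1.11), a mean fold of 6.25 higher in blood. Limma gave an unadjusted p of 0.0047 and an adjusted p of 0.154, and a fit of the 8 arrays with a term for the dye gave an unadjusted p of 0.081 and a log2 ratio of -2.60. Without animal 1 the log2 ratio was -2.79, with an adjusted p of 0.289 by limma. No endometrial channel of animal 3 was well above background for IL18R1, and this was the animal with the largest ratio. With the background corrected by normexp, the mean ratio was -0.86.

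IL18RAP, the signaling partner of IL18R1, was lower in endometrium in 4 of 4 animals as well. The study had listed IL18RAP as higher in blood on these same samples, so its direction here is no independent evidence. Its log2 ratios were -2.51, -3.61, -3.22 and -0.94, with a mean of -2.57 (SE 0.58, adjusted p = 0.123 by limma). Of the 8 channels of each tissue, 7 in blood and 2 in endometrium detected it well above background, and after normexp its mean ratio was -0.40. IL18, the ligand of the pair, was higher in endometrium in each of the 4 animals. Its log2 ratios were 1.44, 2.85, 1.48 and 0.28, with a mean of 1.51 (SE 0.55, adjusted p = 0.261 by limma). The ligand and its 2 receptor chains thus had mean ratios of opposite sign, none of them past the adjustment. The B cell markers had ratios of the same sign as the receptor chains and, like them, the smallest in animal 4, and their part in the result was not tested.

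IL1R2, the decoy receptor for IL1, was well above background only in animal 1. There its level was 10.34 in blood and 5.86 in endometrium, a log2 ratio of -4.48 that both technical replicates showed (-4.61 and -4.34). In animals 2, 3 and 4 no channel exceeded background by the scanner's criterion, and the measured values were 4.58, 2.62 and 3.57 in blood and 2.50, 2.60 and 3.41 in endometrium. The 22.3-fold difference of animal 1 therefore has no replicate among the animals, and after normexp its log2 ratio was -2.36 in place of -4.48. In the blood cells of animal 1 the granulocyte marker CSF3R was high, at 14.69 against 6.37 to 7.05 in the others. The summed level of the 7 granulocyte markers found on the array, most of it CSF3R, was 14.79 against 9.31 to 9.94. CXCR2 of that list was also highest there, at 9.78 against 6.41 to 8.44. MPO, at 6.94, lay within the 6.45 to 7.51 of the others. The monocyte markers given above were high as well. The part of these cells in the IL1R2 signal was not tested.

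The other chains of the IL1 receptor did not move together. IL1R1, the signaling receptor, had log2 ratios of -3.00, -0.44, 1.86 and -1.48 with the first of its 2 probes and of -3.84, -3.01, 6.05 and 1.27 with the other. Its accessory chain IL1RAP had -1.64, 0.88, -0.35 and 2.17. IL1B, the main secreted agonist, was lower in endometrium, with ratios of -4.48, -2.47, -3.33 and -0.02 and a mean of -2.57 (SE 0.75, adjusted p = 0.202 by limma). Its level in blood, 17.11 in animal 1, was 9.92 to 11.23 in the others. IL1RN, the natural antagonist, had a mean ratio of 0.05 (SE 0.61). As with IL1R2, the blood cells of animal 1 were the highest of all 8 preparations for the first IL1R1 probe, IL1RAP, IL1B and IL1RN.

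CRLF2, the TSLP-binding chain, was lower in endometrium in every animal. Blood levels were 11.35, 8.51, 10.67 and 8.60 in animals 1 to 4. Endometrial levels were 8.18, 6.19, 7.61 and 8.24. All 4 blood values exceeded all 4 endometrial values, a separation shown by 2 of the 10 receptor probes and by 6.06% of all probes tested. The log2 ratios were -3.17, -2.33, -3.06 and -0.36, with a mean of -2.23 (SE 0.61, 95% interval -3.66 to -0.80), a mean fold of 4.68 higher in blood. Limma gave an unadjusted p of 0.0078 and an adjusted p of 0.181. Without animal 1 the ratio was -1.91, with an adjusted p of 0.369 by limma. Animal 4 showed a fold of only 1.28, whereas the other animals ranged from 5.01 to 8.97. With the background corrected by normexp the mean ratio was -1.43. All 16 channels detected CRLF2 well above background, and its technical replicates differed by at most 0.26. The B cell markers, with the medians given above, had ratios of the same sign in each animal and were likewise closest to 0 in animal 4, and their part in the CRLF2 result was not tested.

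TSLP, the ligand of CRLF2, had log2 ratios of 2.33, -1.87, 4.70 and 0.86 and a mean of 1.5 (SE 0.998, adjusted p = 0.493 by limma). Detection well above background was seen in 4 of 8 channels of blood and in 6 of 8 of endometrium. Its direction thus varied between animals where that of CRLF2 did not.

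IL7R, which serves the receptors for both IL7 and TSLP, had the widest spread between animals within the set of 10 genes. Its blood levels were 7.30, 13.80, 12.28 and 13.63 in animals 1 to 4. Its endometrial levels were 10.96, 9.51, 10.86 and 13.97. Blood cells of animal 1 stood far below those of the other animals, while among the endometrial cells animal 4 was high and animal 2 low. IL7R was 12.6-fold higher in endometrium in animal 1, 19.6-fold higher in blood in animal 2 and 2.67-fold higher in blood in animal 3, and in animal 4 it was 1.26-fold higher in endometrium. The technical replicates of these ratios differed by at most 0.26 on the log2 scale. The SD of the log2 ratio over the 4 animals was 3.33, larger than for 98.1% of all probes tested.

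Because of that spread, the mean log2 ratio of IL7R, -0.43 (SE 1.17, 95% interval -3.20 to 2.34, adjusted p = 0.893 by limma), described no animal. It was -1.79 without animal 1 and 0.86 without animal 2. The T cell markers moved alongside in the blood of animal 1, with CD3E at 8.03, CD3G at 5.74 and CD2 at 5.55, the lowest of all 8 preparations for each of these 3 probes, but in animal 2 CD3E had a ratio of 1.11 where IL7R had one of -4.29. The part of T cells in the IL7R signal was not tested. The ligand IL7 had ratios of 0.89, -2.17, 1.24 and 1.01, with a mean of 0.24 (SE 0.68).

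**Figure D3:**
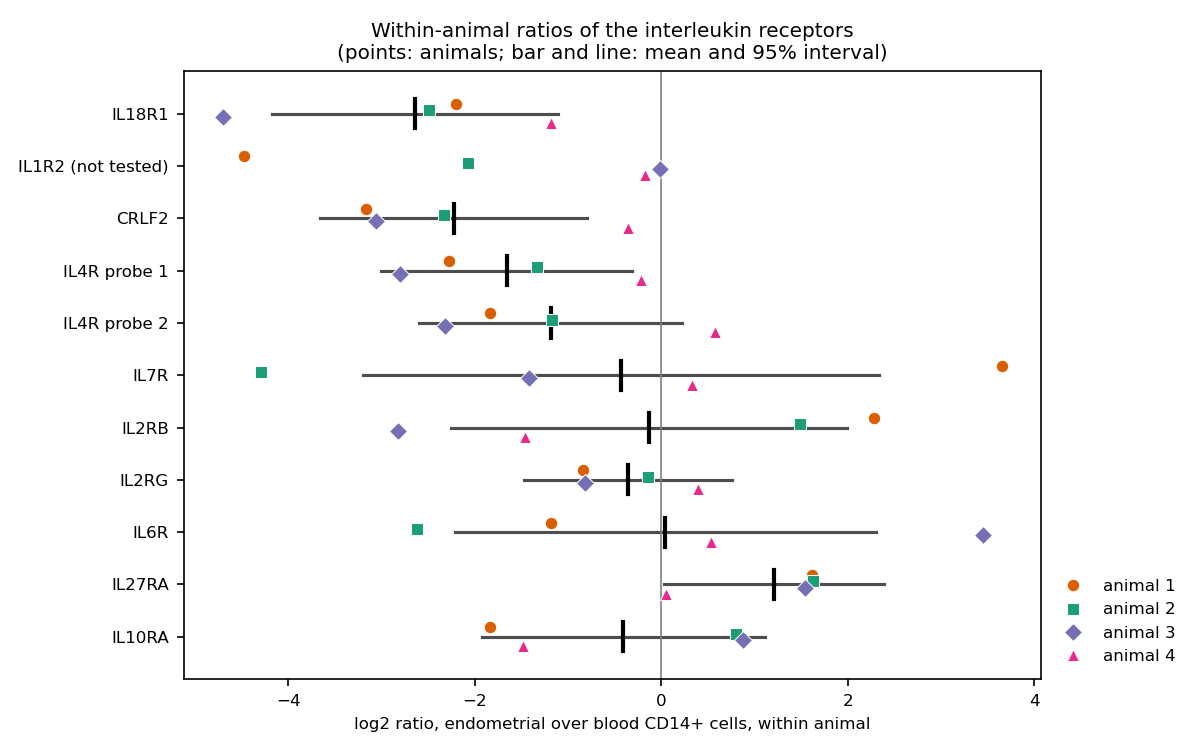
Within-animal log2 ratio of endometrial over blood CD14+ cells for the 11 receptor probes; coloured points are animals 1 to 4, the black bar is the mean and the grey line its 95% interval from limma, omitted for IL1R2, which was not tested. The intervals of IL18R1, CRLF2, IL4R probe 1 and IL27RA leave out 0, and the points of IL7R reach from -4.29 to 3.66.

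IL4R, the receptor chain for IL4 and IL13, was lower in endometrium with both probes. Probe 1 measured 13.54, 14.26, 13.52 and 13.27 in the blood cells of animals 1 to 4. In endometrial cells it measured 11.27, 12.92, 10.72 and 13.06. The tissues did not overlap, since the lowest blood value exceeded the highest endometrial value, although in animal 4 the difference was small. The log2 ratios were -2.27, -1.34, -2.80 and -0.21, with a mean of -1.66 (SE 0.57, 95% interval -3.00 to -0.31), a mean fold of 3.15 higher in blood. Limma gave an unadjusted p of 0.023 and an adjusted p of 0.244. Without animal 1 the ratio was -1.45 (adjusted p = 0.445 by limma).

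Probe 2 of IL4R gave log2 ratios of -1.83, -1.17, -2.32 and 0.58, with a mean of -1.19 (SE 0.60, adjusted p = 0.375 by limma), which was -0.97 without animal 1 and -0.58 after normexp. It followed the order of probe 1 over the animals, and the ratios of the 2 probes differed by 0.47 on average and by at most 0.79, in animal 4, where they disagreed in sign. The B cell markers were lower in endometrium in the same animals, with medians of -2.77, -3.21 and -4.53 in animals 1, 2 and 3, and their part in the IL4R result was not tested. IL13RA1, which joins IL4R in the receptor of non-lymphoid cells, had ratios of -1.94, -1.58, 2.95 and 1.26, opposite in sign to both IL4R probes in animal 3 and to probe 1 in animal 4. IL4 itself had a mean ratio of -0.76 (SE 0.54) and was detected in 6 of 8 blood and 4 of 8 endometrial channels.

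IL2RG, the common gamma chain, had the smallest spread of the set between animals. Blood levels of IL2RG were 13.98, 15.09, 14.98 and 15.06, and endometrial levels were 13.14, 14.94, 14.16 and 15.45 in animals 1 to 4. Animal 1 was the lowest in each tissue. The mean log2 ratio was -0.35 (SE 0.47, 95% interval -1.47 to 0.76, adjusted p = 0.761 by limma), and it was -0.19 without animal 1. The SD of the 4 ratios, 0.59, was larger than for only 16.3% of all probes tested.

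IL2RB, the beta chain shared by the IL2 and IL15 receptors, split the animals in pairs. Its blood levels were 8.21, 10.88, 7.78 and 9.38, and its endometrial levels were 10.49, 12.36, 4.95 and 7.92. The log2 ratio was 2.28 in animal 1 and 1.49 in animal 2, but -2.82 in animal 3 and -1.46 in animal 4, with replicate arrays within 0.29 of each other. Neither endometrial channel of animal 3 detected it well above background. The mean of -0.13 (SE 0.90, 95% interval -2.26 to 2.00, adjusted p = 0.965 by limma) became -0.93 without animal 1, 0.34 with the background corrected by normexp and 0.0015 when each animal was centred on its median. PRF1, a cytotoxic T and NK cell gene of the marker list, measured 7.64 in the blood cells of animal 1 and 13.55 to 14.04 in those of the others, whereas the blood level of IL2RB was lowest in animal 3. The log2 ratios of PRF1 were 2.79, 1.61, -0.05 and 0.44, larger in animals 1 and 2 than in 3 and 4, as for IL2RB. CD3G (2.33, 0.11, -1.32 and -0.26) and ZAP70 (2.02, 0.37, -0.40 and -1.13) of that list had the same split. CD3E (2.26, 1.11, 1.71 and -0.26) and NCR1 (-1.21, -0.41, -1.55 and -0.39) did not. The part of these cells in the IL2RB values was not tested.

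Further receptor chains gave little more agreement. IL2RA, the inducible alpha chain of the IL2 receptor, was lower in endometrium in 4 of 4 animals, with ratios of -1.71, -1.37, -4.86 and -0.03 and a mean of -1.99 (SE 0.80, adjusted p = 0.295 by limma). IL15RA, which presents IL15, had a mean ratio of 0.45 (SE 0.49) and was detected in 3 of 8 blood and 4 of 8 endometrial channels. IL15 itself was well above background in 2 of 8 channels of each tissue and was not tested. CSF2RB, the signal chain for IL3, IL5 and GM-CSF, had a mean ratio of -1.03 (SE 0.64, adjusted p = 0.466 by limma) with the first of its 2 probes and of 0.69 (SE 0.80) with the other.

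IL27RA was the only receptor of the set that was higher in endometrium in 4 of 4 animals. This chain binds IL27, a dimer of the IL27 subunit and EBI3. Its levels in blood were 12.05, 14.26, 13.60 and 14.49 in animals 1 to 4. Its levels in endometrium were 13.67, 15.89, 15.14 and 14.55. Animal 1 was the lowest in each tissue, so that the tissues overlapped although each endometrial value exceeded the blood value of its own animal. The log2 ratio was 1.62, 1.63 and 1.54 in animals 1, 2 and 3, or about the same, and 0.06 in animal 4. The mean was 1.21 (SE 0.50, 95% interval 0.03 to 2.39), a mean fold of 2.32 higher in endometrium, and limma gave an unadjusted p of 0.046 and an adjusted p of 0.303.

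Animal 4 lowered the mean of IL27RA, which was 1.60 without it, with an adjusted p of 0.264 by limma. Without animal 1 it was 1.07, with an adjusted p of 0.50 by limma. Among T and NK cell markers, CD2 had log2 ratios of 3.17, 2.76, 2.03 and 0.24 and NKG7 ratios of 2.92, 2.18, 1.27 and 0.11 in animals 1 to 4, also positive throughout and smallest in animal 4. CD3D, of the same list, had a ratio of -3.33 in animal 3, and NCR1 was lower in endometrium in every animal (-1.21, -0.41, -1.55 and -0.39). The medians of the 13 markers of the list were 2.26, 0.37, -0.05 and -0.10, with 10 positive and 3 negative mean ratios. The part of these cells in the IL27RA result was not tested. The ligand subunits went the other way on average without passing the test, with mean ratios of -0.55 (SE 0.61) for IL27 and -0.95 (SE 0.59) for EBI3.

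IL6R, the ligand-binding chain for IL6, had the second widest spread of the set. In blood its levels were 12.68, 10.47, 8.27 and 9.41. In endometrium they were 11.50, 7.85, 11.72 and 9.94. The receptor was 2.27-fold and 6.16-fold higher in the blood of animals 1 and 2, and 10.9-fold and 1.45-fold higher in the endometrium of animals 3 and 4. The technical replicates of these ratios differed by at most 0.11. The mean log2 ratio of 0.05 (SE 0.96, 95% interval -2.22 to 2.31, adjusted p = 0.990 by limma) was -1.09 without animal 3 and 0.45 without animal 1, and the SD of 2.61 exceeded that of 93.2% of all probes tested.

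IL6ST, the signal chain with which IL6R and IL27RA both act, had its largest ratio in the same animal as IL6R. Its log2 ratios were 0.75, -0.998, 4.43 and 0.71, with a mean of 1.22 (SE 0.86, adjusted p = 0.521 by limma) that fell to 0.16 without animal 3. In the endometrium of animal 3 the epithelial markers were also highest, with a summed level of 17.31 against 13.38 to 14.46 in the others. The trophoblast markers were likewise highest there, at 17.26 against 15.50 to 16.03. The stromal markers were not, at 12.29 against 17.79 in the endometrium of animal 1. The part of these cells in the IL6R and IL6ST signals was not tested. IL6 had ratios of -6.63, 0.29, 2.75 and 1.62, and in animal 1 its blood level of 16.77 was far above the 9.06 to 10.20 of the others.

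IL10RA, the ligand-binding chain for IL10, did not differ in a fixed direction. Its blood levels were 8.33, 5.93, 7.43 and 5.99, and its endometrial levels were 6.49, 6.74, 8.31 and 4.51, the last not well above background. The log2 ratios were -1.84, 0.81, 0.88 and -1.48, with a mean of -0.41 (SE 0.64, 95% interval -1.93 to 1.11, adjusted p = 0.801 by limma), and 0.07 without animal 1. In animal 4 the technical replicates differed by 1.40, the largest such difference among the receptors. IL10RB had ratios of -2.71, -1.28, -1.54 and 0.00, with a mean of -1.38 (SE 0.56, adjusted p = 0.301 by limma). IL10 was lower in endometrium in animals 1, 2 and 3, with ratios of -3.93, -1.55 and -3.68, and had 0.36 in animal 4, with a mean of -2.20 (SE 0.79, adjusted p = 0.254 by limma).

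**Figure D4:**
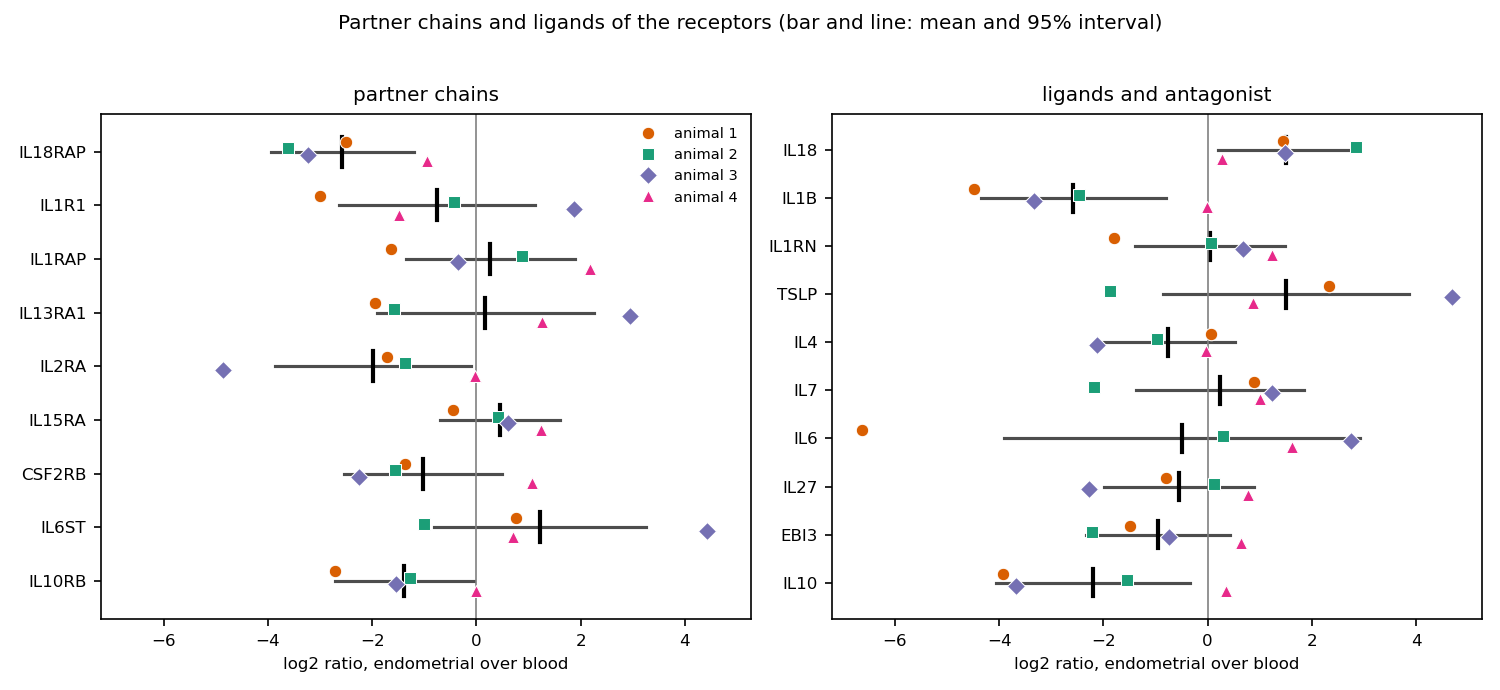
Within-animal log2 ratio of endometrial over blood CD14+ cells for 9 other receptor chains (left, headed partner chains) and for 10 tested ligands and antagonists (right). Points are animals 1 to 4, the black bar is the mean and the grey line its 95% interval from limma. CSF2RB, in the left panel, is not a partner of the receptors of the set. IL18RAP lies below 0 and IL18 above 0 in all 4 animals, and animal 1 is lowest for IL6 at -6.63.

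Wider lists of the pathway gave the same count after adjustment. Of 33 other interleukin receptor genes, 29 were found on the array and 22 were tested with the first probe of each gene, and limma called 0 of 22. At the unadjusted threshold 5 of them passed as lower in endometrium (IL2RA, IL10RB, IL12RB2, IL17RB and IL18RAP) and 1 as higher (IL11RA), where 8.05% of all probes passed as lower and 7.98% as higher, and their median log2 ratio was -0.37 beside -0.14 for all probes tested. A further probe of LIFR, not counted here, also passed as higher (log2 ratio 3.56), whereas the first LIFR probe had 0.91. Among 13 ligands and antagonists tested, 0 were called, 2 passed unadjusted as lower (IL1B and IL10) and 1 as higher (IL18), and the median was 0.05. All 20 signal mediators, among them JAK kinases, STAT proteins, MYD88 and its kinases, and SOCS inhibitors, were tested. None of these 20 was called, 2 passed unadjusted as lower (STAT4 and STAT5B) and 0 as higher, 18 had a negative ratio, as had 56.7% of all probes tested, and the median was -0.62. ADAM10 and ADAM17, proteases that release the ectodomains of IL6R and other receptors, had mean ratios of 0.90 (SE 0.63) and -1.48 (SE 0.85).

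Profiles most like those of the receptors were found by Pearson's r over the 8 means of animal and tissue, which share animals and arrays, and r is given as a description. For IL27RA the nearest genes were CD96, GIMAP7 and KIR2DL5A, with r of 0.984, 0.977 and 0.975 and log2 ratios of 2.51, 1.70 and 3.35. For IL18R1 they were ACCN2, YPEL5 and ANKRD12, with r of 0.997, 0.994 and 0.989. For CRLF2 they were DSU, C13orf18 and TCEB1, with r of 0.990, 0.975 and 0.967. Among the genes closest to IL4R probe 1 were RBM18 and PCTK2, with r of 0.984 and 0.982. IL7R was closest to MRPL20, GGCX and BAG5, and IL6R to C1RL, TFEC and PTPRJ, with r from 0.956 to 0.997. Among the genes closest to IL2RG were UBE2D2 and another interleukin receptor, IL12RB2 (r of 0.984), whose log2 ratio of -2.11 was larger in size than that of IL2RG. IL2RB was nearest to PLEKHF1, DOLPP1 and STRN3, and IL10RA to L3MBTL2, RNPEP and COL22A1, with r between 0.953 and 0.965. Within the set, the highest r was that of IL18R1 with IL4R probe 2, at 0.94, above the 0.86 of the 2 IL4R probes with each other.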

How the data were processed

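Gene expression in CD14+ cells of endometrium and blood was measured on 8 Agilent bovine arrays. The authors deposited scanner intensity per spot, from Feature Extraction (9.5 in the submitters' notes, 10.5.1.1 in the file headers), and normalized log2 values (lowess, then quantiles; median 8.00 in every channel). Spots and technical replicates were averaged in the deposited log2 values, and the within-animal difference was tested against 0 with lmFit and eBayes of limma 3.58.1 (R 4.3.3). Scanner files were found exchanged between technical replicates of an animal and were read accordingly, for background flags and normexp.

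The 16653 probes well above background in at least 4 of 8 channels of a tissue were tested, with Benjamini-Hochberg adjustment over all of them. No spot was saturated. The number of arrays limits precision, and an exact permutation test over 4 animals cannot go below p = 0.125. Animals paired the tissues, per the labels; deviations from tissue means correlated with r of 0.63, 0.37, 0.24 and 0.45. Technical replicates were counted once. For a gene with several probes, that with the highest mean came first.

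Receptors, partners, ligands, markers and the rule for similar profiles (the 3 highest r) were chosen with earlier results of these data known. Of the similar profiles, 2 are not reported here. PAG1, whose probes carry the name of a phosphoprotein, was left out of the trophoblast markers. Fits were tested on simulated data. Alternatives changed intensities, background correction, centring, filter, pairing, replicates, animals and test.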

Additional observations from a re-analysis of the deposited data

Results flagged for a closer look

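Over the 33 sets of 4 values per receptor probe (blood level, endometrial level and ratio), 2 held an animal far from the other 3, by a gap over Dixon's 95% limit. Chance flags about 1 in 20 such sets. The log2 ratio of IL27RA in animal 4, 0.06 (0.0565), lay apart from the 1.54 to 1.63 of the other animals. The blood level of IL2RG in animal 1, 13.98, lay below the 14.98 to 15.09 of the others.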

How the results depend on the processing

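Over the 15 alternatives with an adjusted p, 0 receptor probes were called, as in the main result, and the lowest adjusted p of any receptor was 0.094. At an unadjusted p, 4 receptor probes and 2670 of all probes passed the fold change, and over the alternatives 2 to 5 receptor probes did. That count was 2 with no replicate block and 3 with normexp or a dye term. Of 150 alternative log2 ratios of the 10 tested probes, 141 kept their sign and 9 did not, and 6 probes never changed sign. With the background corrected by normexp, IL2RB had 0.34 and IL6R -0.0090, and with centring on the median IL2RB had 0.0015. Leaving out each animal in turn gave -0.84 to 0.07 (0.068) for IL10RA, -0.93 to 0.77 for IL2RB, -1.09 to 0.94 for IL6R and -1.79 to 0.86 for IL7R, -2.85 to -1.91 for CRLF2, -3.13 to -1.96 for IL18R1, -2.14 to -1.27 for IL4R probe 1, -1.77 to -0.81 for IL4R probe 2, -0.60 to -0.19 for IL2RG and 1.07 to 1.60 for IL27RA. In these fits the adjusted p of limma lay between 0.112 and 0.987.

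The number of all probes called, 224 in the main result, was 11 with normexp, 123 without a filter on dim probes, 0 with the methods' analysis of variance (1229 unadjusted, of which 2 were receptor probes) and 0 to 180 with an animal left out. It was 64 without animal 1, 95 without animal 3 and 0 without animal 4. Without the block on animal, that is with no replicate pairing, 38 probes and 0 receptor probes were called, and the receptor ratios stayed as they were. The cause of these changes was not tested, except that leaving out an animal leaves fewer samples and removing the filter adds probes. For IL18R1, IL2RB and IL10RA, dim in the endometrial cells of an animal, signal over background limits the ratio.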
